A study of Mus musculus with 51 samples.

Results

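The 10 genes described here encode transcription factors that act when the embryo makes mesoderm and endoderm: *T*, *Tbx3*, *Tbx6*, *Mixl1*, *Mesp1*, *Evx1*, *Snai1*, *Gsc*, *Sox17* and *Gata6*. They were taken by name, as 10 of 20807 autosomal protein-coding genes. Their data were the 192 windows of 1 kb that lie over each gene and 5 kb around it, and the peaks that carry a member's name in the 6 allelic read count tables. A member named 40 of 144952 autosomal peaks, and 32 of these were informative, with at least 20 reads of 1 parental allele in a wild-type library. *Evx1* and *Tbx6* named no peak. A further 20 peaks that lie over a member but carry a neighbour's name were added, and all 20 were informative.

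Gastrulation begins in the posterior epiblast, where cells leave through the primitive streak to become mesoderm and definitive endoderm. The extra-embryonic ectoderm (ExE) is trophoblast, feeds the placenta and does not gastrulate. Trimethylation of H3 lysine 4 (H3K4me3) marks promoters, that of lysine 27 (H3K27me3) is laid down by Polycomb repressive complexes, and that of lysine 36 (H3K36me3) follows transcribed gene bodies. Promoters of developmental regulators that carry both H3K4me3 and H3K27me3 are called bivalent, a state best known from pluripotent cells. In a bulk library both marks at a promoter do not show that the same cell or nucleosome holds both.

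Native ChIP-seq at very low input profiled epiblast and ExE of E6.5 hybrid mouse embryos, with 4 epiblasts or 8 ExEs pooled for a sample. The wild-type crosses were C57BL6/Babr x CAST/Ei (B6/CAST, mother named first) and the reciprocal CAST/Ei x C57BL6/Babr (CAST/B6). In the third cross, matDKO/CAST, the mothers were of B6/129 background and homozygous for floxed *Dnmt3a* and *Dnmt3b*, with Zp3-driven Cre in the oocyte. Those oocytes lack DNA methylation, the fathers were CAST, and the embryos themselves were *Dnmt3a* -/+, *Dnmt3b* -/+. Each mark had 12 libraries, 2 for each of 6 groups, beside 15 inputs, 2 of which are matDKO/CAST inputs whose strain label lacks 129, and the groups differ in maternal background (129) as well as in the deletion.

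The 36 ChIP libraries held 2.09 to 22.9 megareads (M) each (4.01 to 17.9 M in H3K4me3, 3.68 to 22.9 M in H3K27me3 and 2.09 to 12.6 M in H3K36me3). The labelled tissues were checked against their markers. H3K4me3 at *Pou5f1*, a pluripotency gene, was 32.2 RPKM in wild-type epiblast and 5.83 RPKM in ExE, and at *Cdx2*, a trophoblast gene, it was 11.0 and 27.5 RPKM. H3K4me3 fell in ExE at 6 of 9 epiblast markers and rose at 3 of 9 ExE markers. It fell at 1 of those 9, *Tfap2a* (4.3 and 2.37 RPKM, log2 difference −0.82, limma adjusted p = 0.043), and was not called at *Eomes* (37.2 and 31.0 RPKM), with the trophoblast genes *Elf5* (0.156 and 0.312 RPKM) and *Esrrb* (0.498 and 0.2 RPKM) near 0 in both tissues. Of 12 markers of visceral endoderm, a layer that wraps both tissues, H3K4me3 rose at 6 in ExE, and their summed level ran from 51.5 to 78.1 RPKM in epiblast and from 68.6 to 107 RPKM in ExE. H3K36me3 rose in ExE at 9 of the 12, at 7 of 9 ExE markers, and at 0 of 9 epiblast markers, of which 5 fell. Of 4 markers of giant cells and ectoplacental cone, H3K4me3 rose at 1, with summed levels of 9.23 to 19 and 18.6 to 27.6 RPKM, and the defining *Prl3d1* and *Tpbpa* averaged 0.148 and 0.0831 RPKM in ExE. The 3 maternal blood markers summed to at most 0.573 RPKM of H3K4me3 in wild-type and 0.948 RPKM in matDKO/CAST libraries.

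Promoter sequences are printed for 4 members whose RefSeq start coincides with the annotated 5′ end, since these members fell on different sides of the mark pattern described next. At *T* and *Evx1* both marks lay over the 5′ end in both wild-type crosses, at *Snai1* H3K27me3 did in CAST/B6 epiblast alone, and at *Tbx6* it did in no list. Each run is the 250 bases before the start (RefSeq, GRCm38.p6, + strand), in lower case with CpG dinucleotides in capitals: *T* at chr17:8434173-8434422, *Evx1* at chr6:52313248-52313497, *Tbx6* at chr7:126781233-126781482 and *Snai1* at chr2:167537945-167538194.
T: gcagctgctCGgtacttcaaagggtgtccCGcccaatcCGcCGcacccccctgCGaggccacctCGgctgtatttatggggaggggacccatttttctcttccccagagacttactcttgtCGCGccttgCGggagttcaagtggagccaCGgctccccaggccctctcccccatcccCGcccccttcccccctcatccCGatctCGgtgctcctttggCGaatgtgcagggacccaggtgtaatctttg
Evx1: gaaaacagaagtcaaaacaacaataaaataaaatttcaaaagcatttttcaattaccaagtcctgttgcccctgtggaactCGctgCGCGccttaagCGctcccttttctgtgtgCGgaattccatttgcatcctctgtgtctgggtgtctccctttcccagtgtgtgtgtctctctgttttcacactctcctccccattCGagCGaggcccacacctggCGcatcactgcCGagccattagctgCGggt
Tbx6: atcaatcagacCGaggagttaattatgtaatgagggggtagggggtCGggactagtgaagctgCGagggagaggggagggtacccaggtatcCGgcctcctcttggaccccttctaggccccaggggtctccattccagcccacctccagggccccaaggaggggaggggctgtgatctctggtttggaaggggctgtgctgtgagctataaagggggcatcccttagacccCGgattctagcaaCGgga
Snai1: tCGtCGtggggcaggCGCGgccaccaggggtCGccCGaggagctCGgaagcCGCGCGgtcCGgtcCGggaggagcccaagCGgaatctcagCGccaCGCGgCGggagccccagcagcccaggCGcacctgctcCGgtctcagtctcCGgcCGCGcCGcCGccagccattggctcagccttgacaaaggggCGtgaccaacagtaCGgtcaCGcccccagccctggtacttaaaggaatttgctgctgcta

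The runs held 14 CpGs for *T*, 10 for *Evx1*, 6 for *Tbx6* and 27 for *Snai1*, against a median of 6 over 31396 autosomal promoters of this length. Of the 6 members in the RefSeq table, *Gsc* held 22 CpGs and *Mesp1* 2, and their RefSeq starts lie 94 and 198 bases from the annotated ones. *Mixl1*, *Tbx3*, *Sox17* and *Gata6* are not in that table. The letters CTTTGA, a core of the TCF/LEF motif, were found on either strand in *T* and *Mesp1* and in 13.8% of all promoters. The letters TCACACC, a core of the T-box motif, were in none of the 6 and in 3.37% of all promoters.

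The first question was which members carried both marks in epiblast and what stood in their place in ExE. In the peak lists of both wild-type crosses, 8 of 10 members had an H3K4me3 and an H3K27me3 peak within 1 kb of the 5′ end in epiblast: *T*, *Tbx3*, *Mixl1*, *Mesp1*, *Evx1*, *Gsc*, *Sox17* and *Gata6*. The same 8 had both in ExE. Over all genes, 4367 (21.0%) had both in epiblast and 5432 (26.1%) in ExE. *Tbx6*, a regulator of paraxial mesoderm, and *Snai1*, the repressor of E-cadherin in the epithelial-mesenchymal transition, were counted as H3K4me3 alone in both tissues, as were 46.3% and 41.2% of all genes. *Snai1* did have an H3K27me3 peak over its 5′ end in CAST/B6 epiblast, in 1 of the 2 crosses. The authors called peaks for each cross and tissue on its replicates together, so these counts have no replicate error.

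Both marks were also common at related genes. They were present in epiblast and in ExE at 18 of 20 other mesoderm transcription factors in each tissue, at 13 and 13 of 15 endoderm and node transcription factors, and at 9 and 10 of 14 gastrulation signals. Keeping both marks in ExE was common over the genome too: of the 4367 genes with both in epiblast, 3972 (91.0%) had both in ExE. Among those 4367, H3K27me3 over the gene was higher in ExE at 22.1% and lower at 22.2%, with a median log2 difference of 0.02. Among the 8 members it was higher at 0 and lower at 5, with a median of −0.71.

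The length of the H3K27me3 peak over the 5′ end separated the members. At *T* (Brachyury), which mesoderm formation requires, the peak was 163.0 kb long in B6/CAST and 78.5 kb in CAST/B6 epiblast, and 354.5 and 355.0 kb in ExE. At *Evx1*, a homeobox gene of the posterior streak, it was 46.0 and 41.0 kb in epiblast and 254.0 and 228.5 kb in ExE. These domains run past the genes themselves, and the *T* domain covers several neighbours. *Gsc*, a homeobox gene of the organiser, had peaks of 15.0 and 19 kb in epiblast and 109.5 and 115.5 kb in ExE. *Mesp1*, which marks cardiac progenitors, had 11.5 and 7.0 kb in epiblast and 83.5 and 128.0 kb in ExE. At the other 4 bivalent members the peak kept a like length in both tissues. It was 44.0 and 46.0 kb at *Tbx3* in epiblast and 39.0 kb in both crosses in ExE, 21.0 and 19.5 against 15.0 and 21.0 kb at *Sox17*, 19 and 20 against 17.5 and 18.0 kb at *Gata6*, and 5.5 and 6.0 against 6.5 and 6.5 kb at *Mixl1*. *Snai1* had such a peak in CAST/B6 epiblast alone (5.0 kb), and *Tbx6* in no list.

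Long peaks in ExE were general. Over 4015 genes with an H3K27me3 peak at the 5′ end in all 4 lists, the median length was 12.5 kb in epiblast and 30.0 kb in ExE in B6/CAST, and 13.5 and 42.0 kb in CAST/B6. The peak was over 2 times longer in ExE at 45.8% of these genes in B6/CAST and 56.4% in CAST/B6, and at 4 of 8 members (50%) in each cross. H3K27me3 peaks covered 103.86 and 116.52 Mb in the 2 epiblast lists and 368.7 and 477.75 Mb in the ExE lists. The ExE libraries were also deeper. B6/CAST had 13.5 and 9.1 M reads in epiblast and 16.1 and 14.5 M in ExE, and CAST/B6 14.8 and 10.7 M against 22.9 and 14.7 M. The part of depth in peak length was not tested.

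**Figure D1:**
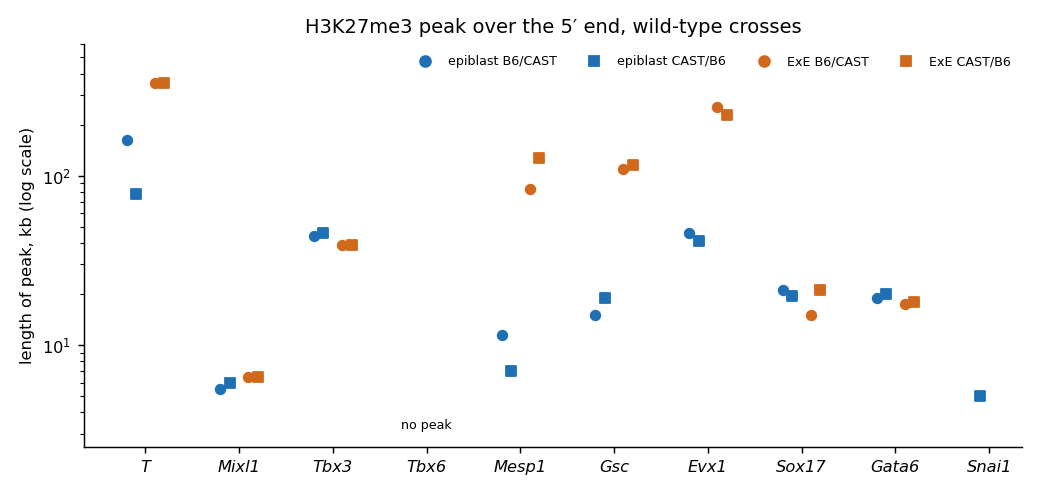
Length in kb (log axis) of the H3K27me3 peak over the 5′ end of each member, from the wild-type peak lists; circles are B6/CAST, squares CAST/B6, blue epiblast and orange ExE. *T*, *Evx1*, *Gsc* and *Mesp1* have ExE points well above their epiblast points, up to 355.0 kb at *T*, and *Tbx3*, *Sox17*, *Gata6* and *Mixl1* do not.

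Signal was then compared by library. H3K27me3 is given as the mean RPKM of the 1 kb windows over the gene and 5 kb around it. H3K4me3 is given as that within 2 kb of the 5′ end and H3K36me3 as that over the gene body, so values are per length. The H3K27me3 region held from 12 windows at *Mesp1* to 44 at *Gata6*, so the order of genes also depends on how much of it a domain fills. In epiblast *Gata6* averaged 2.32 RPKM with a highest window of 10.4, and *T* 3.63 with a highest window of 7.62. In wild-type epiblast, H3K27me3 was highest at *Tbx3* (7.46 RPKM ± 2.14, SD, n = 4), *Evx1* (6.34 ± 1.11), *Sox17* (5.82 ± 1.31) and *Gsc* (4.93 ± 1.31), all at or above the 98.6th percentile of all genes. *T* (3.63 ± 0.429), *Gata6* (2.32 ± 0.347) and *Mesp1* (2.25 ± 0.157) followed, and *Mixl1* (0.866 ± 0.166), *Snai1* (0.643 ± 0.0577) and *Tbx6* (0.173 ± 0.0167) were lowest. The all-gene median was 0.328 RPKM, so *Tbx6* lay below it. Neighbours in this order had separate ranges only between *T* and *Gata6*, *Mesp1* and *Mixl1*, and *Snai1* and *Tbx6*.

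The order differed in ExE. *Gsc* (3.6 RPKM ± 0.579, SD, n = 4), *Evx1* (3.14 ± 0.454) and *T* (2.37 ± 0.22) led, before *Sox17* (2.17 ± 0.39) and *Mesp1* (1.96 ± 0.248). *Tbx3*, highest in epiblast, lay at 0.835 ± 0.141 beside *Gata6* (0.842 ± 0.118), and *Tbx6* was again lowest (0.161 ± 0.0445). The all-gene median was 0.325 RPKM. Adjacent members with separate ranges were *Evx1* and *T*, *Mesp1* and *Gata6*, *Mixl1* and *Snai1*, and *Snai1* and *Tbx6*. For H3K4me3 in epiblast, *T* was highest at 19.2 RPKM ± 6.89, and every pair of neighbours overlapped. In ExE *Tbx3* was highest at 27.8 ± 6.41, the 99th percentile, clear of *Gata6* at 17.6 ± 3.13, and every other pair of neighbours overlapped.

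**Figure D2:**
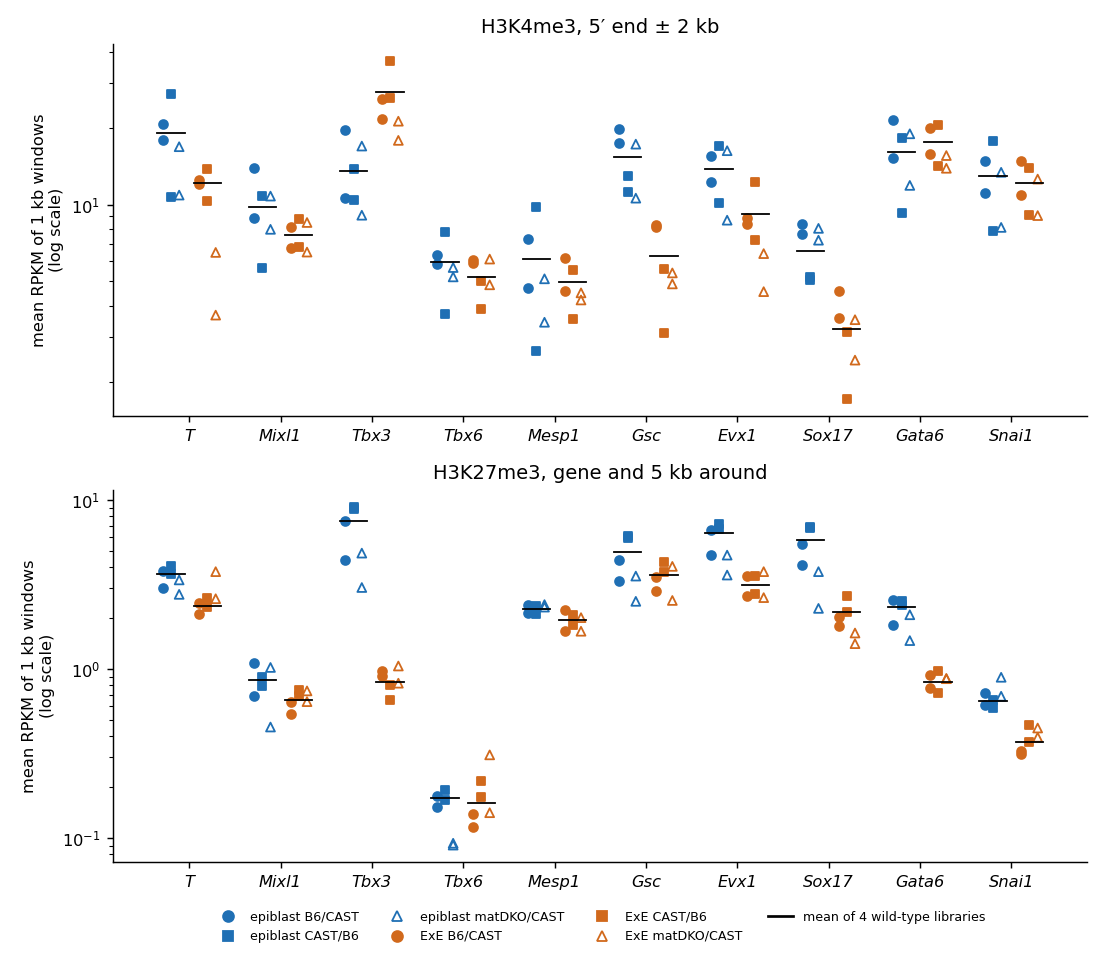
Level of each member in every library, as mean RPKM of 1 kb windows on a log axis, for H3K4me3 within 2 kb of the 5′ end (upper panel) and H3K27me3 over the gene and 5 kb around (lower panel); blue is epiblast, orange ExE, open triangles matDKO/CAST, and black bars the mean of 4 wild-type libraries. The wild-type H3K27me3 points of *Tbx3* go from 4.43 to 9.11 RPKM in epiblast to 0.651 to 0.978 RPKM in ExE, while those of *Mesp1* and *Gsc* overlap.

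The tissues were compared over the wild-type crosses with limma on log2(RPKM + 0.5), a scale that understates changes at low levels. H3K27me3 was lower in ExE at 6 of 10 members and higher at 0, where 9.87% of all genes were called lower and 17.2% higher. By edgeR on the recovered reads that split of 2054 lower and 3586 higher genes became 3152 and 3256, and it turned to 2428 lower and 1746 higher within 2 kb of the 5′ end and 1959 lower and 1173 higher within 1 kb. The members' directions did not turn by edgeR. The members' median log2 difference was −0.46 and that of all genes 0.00. The 4 ExE libraries lay wholly below the 4 epiblast libraries at those same 6 members, as at 12% of all genes. The libraries are bulk, so fewer cells with the mark and less of the mark per cell cannot be told apart.

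*Tbx3*, a T-box gene active in the early heart, limb and extra-embryonic layers, changed most. Its H3K27me3 was 4.43 and 7.47 RPKM in B6/CAST epiblast, 9.11 and 8.83 in CAST/B6 epiblast, 0.905 and 0.978 in B6/CAST ExE and 0.651 and 0.804 in CAST/B6 ExE. Every ExE library was far below every epiblast library. The difference was −2.54 on the log2 scale (SE 0.17, limma adjusted p = 0.0002), which is 5.8-fold lower in ExE on this scale with its pseudocount. The alternatives ran from −3.18, by edgeR on the recovered reads, to −2.10, within 1 kb of the 5′ end, and the call was kept in 22 of 22. *Tbx3* also gained the other marks in ExE. H3K4me3 at its 5′ end was 19.6 and 10.6 RPKM in B6/CAST epiblast and 13.8 and 10.4 in CAST/B6 epiblast, against 26.1 and 21.8 in B6/CAST ExE and 26.4 and 36.8 in CAST/B6 ExE. The groups did not overlap, as for 3.41% of all genes in this direction, and the difference was 1.02 (SE 0.25, limma adjusted p = 0.031). That call was lost in 8 of 22 alternatives, 7 of which left out a single wild-type library (adjusted p up to 0.1), with the difference between 0.81 and 1.6 throughout.

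H3K36me3 over the *Tbx3* body was 0.431 and 0.498 RPKM in B6/CAST epiblast and 0.846 and 1.0 in CAST/B6 epiblast, against 2.58 and 2.19, and 1.46 and 2.14 RPKM, in ExE. The ExE libraries were all above the epiblast ones, and the difference was 1.13 (SE 0.18, limma adjusted p = 0.0027). *Tbx3* thus went the same way in ExE for the marks of promoters and of transcribed bodies and the opposite way for H3K27me3, while both peaks remained called over its 5′ end.

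For *T*, H3K27me3 was 3.03 and 3.8 RPKM in B6/CAST epiblast and 4.04 and 3.63 in CAST/B6 epiblast, against 2.44 and 2.1, and 2.62 and 2.32 RPKM, in ExE. The groups did not overlap, but the gap was small: −0.52 (SE 0.13, limma adjusted p = 0.015), or 1.44-fold. The call was lost in 4 of 22 alternatives (adjusted p up to 0.077), namely without B6/CAST epiblast replicate 2 (−0.45), B6/CAST ExE replicate 2 (−0.48) or CAST/B6 ExE replicate 2 (−0.49), and within 1 kb of the 5′ end (−0.45). H3K4me3 at *T* was 10.7 to 27.3 RPKM in epiblast and 10.3 to 13.8 in ExE, with overlapping ranges (−0.57, SE 0.29, limma adjusted p = 0.33). It was called lower by edgeR (−0.63, adjusted p = 2.6e-05), by limma with genes under 0.5 RPKM left out (0.0094) and with the replicate block (−0.80, 0.026). That block compares same-numbered libraries, and in CAST/B6 H3K4me3 only replicate 2 has a partner. Without CAST/B6 epiblast replicate 3 the difference was −0.90, and the block sets that library aside as well. *Tbx6* had H3K27me3 of 0.153 to 0.193 RPKM in epiblast and 0.116 to 0.217 in ExE, with no detectable difference (−0.03, adjusted p = 0.83).

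Among the other mesoderm genes, *Evx1* H3K27me3 was 4.73, 6.65, 7.24 and 6.75 RPKM in the 4 wild-type epiblast libraries and 3.53, 2.7, 3.53 and 2.79 in ExE. All ExE libraries were lower (−0.90, SE 0.17, limma adjusted p = 0.0045). The size depended on the region measured: within 1 kb of its 5′ end the difference was 0.01 (adjusted p = 0.98), and within 2 kb −0.31 (adjusted p = 0.29). *Snai1* fell from a low level, with 0.612, 0.718, 0.656 and 0.586 RPKM in epiblast and 0.315, 0.326, 0.466 and 0.371 in ExE (−0.40, SE 0.07, limma adjusted p = 0.0032, and −0.57 with adjusted p = 0.063 within 1 kb of the 5′ end). *Mesp1* (2.1 to 2.4 RPKM in epiblast and 1.68 to 2.24 in ExE, −0.17, adjusted p = 0.26) and *Mixl1* (0.696 to 1.08 and 0.542 to 0.747 RPKM, −0.24, adjusted p = 0.25), a homeobox gene of the streak, overlapped between tissues. *Mesp1* was called lower within 2 kb of the 5′ end (−0.50, adjusted p = 0.02) and with enrichment normalization (−0.25, 0.03), and *Mixl1* with genes under 0.5 RPKM left out (−0.24, 0.011) and with the replicate block (−0.24, 0.038).

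*Gsc* was called for H3K4me3 and, on the scale used here, not for H3K27me3. Its H3K4me3 was 19.9 and 17.4 RPKM in B6/CAST epiblast and 11.2 and 13.0 in CAST/B6 epiblast, against 8.31 and 8.17, and 3.11 and 5.57 RPKM, in ExE. All 4 ExE libraries were below all epiblast libraries, as for 8.6% of genes, and the difference was −1.28 (SE 0.19, limma adjusted p = 0.0031), or 2.43-fold lower. With enrichment normalization, a scaling to equal high percentiles, it was −0.77 (adjusted p = 0.063). H3K27me3 at *Gsc* was 3.33, 4.41, 6.07 and 5.93 RPKM in epiblast and 3.48, 2.88, 4.28 and 3.74 in ExE, with overlap and no call (−0.38, limma adjusted p = 0.12). It was called lower with genes under 0.5 RPKM left out (adjusted p = 0.034), with enrichment normalization (−0.49, 0.019), by edgeR (−0.48, 0.049) and DESeq2 (−0.47, 0.034) on recovered reads, and with the replicate block (−0.38, 0.011).

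The endoderm genes lost H3K27me3. *Sox17*, which definitive endoderm requires, had 4.1, 5.5, 6.77 and 6.91 RPKM in epiblast and 2.02, 1.79, 2.71 and 2.16 in ExE, 2.34-fold lower (−1.23, SE 0.15, limma adjusted p = 0.00096). *Gata6*, which primitive endoderm requires, had 1.81, 2.57, 2.4 and 2.52 RPKM in epiblast and 0.915, 0.767, 0.966 and 0.718 in ExE, 2.1-fold lower (−1.07, SE 0.12, limma adjusted p = 0.00067). In both genes every ExE library lay below every epiblast library. Their H3K4me3 differed. *Sox17* had 7.65, 8.39, 5.03 and 5.2 RPKM at the 5′ end in epiblast and 4.57, 3.56, 1.71 and 3.16 in ExE, wholly below (−0.94, SE 0.18, limma adjusted p = 0.0098), though over the gene and 5 kb around it the difference was −0.22 (adjusted p = 0.4), with enrichment normalization −0.49 (adjusted p = 0.17) and with the replicate block −0.75 (adjusted p = 0.051). *Gata6* overlapped, with 9.28 to 21.5 RPKM in epiblast and 14.2 to 20.6 in ExE (0.17, adjusted p = 0.84).

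For H3K4me3 as a whole, 1 member was called higher in ExE (*Tbx3*) and 2 lower (*Gsc*, *Sox17*), where 2.55% and 8.65% of all genes were called. Enrichment normalization moved the median of all genes to 0.34 and turned that split, from 530 higher and 1799 lower to 1286 higher and 257 lower, and *Tbx3* alone of the members was then called. The members' median difference was −0.23. *Evx1* (−0.55, adjusted p = 0.26), *Mixl1* (−0.28, 0.62), *Mesp1* (−0.17, 0.91), *Tbx6* (−0.15, 0.83) and *Snai1* (−0.04, 0.99) were not called. *Evx1* was called lower at about the same size with the replicate block (−0.55, adjusted p = 0.043), with genes under 0.5 RPKM left out (0.011), by edgeR (−0.55, 8e-05) and by DESeq2 (−0.53, 0.044), and *Mixl1* by edgeR (−0.32, 0.032). For H3K36me3, 3 members were called higher and 0 lower, where 31.0% of all genes were higher and 6.22% lower, so the share of members is at the background. The median of all genes was itself 0.10, and the split of 6450 higher and 1294 lower genes became 4747 and 4026 by edgeR on the recovered reads and 1850 and 860 under enrichment normalization.

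Those 3 were *Tbx3*, *Gata6* and *Tbx6*. *Gata6* had 0.747, 0.647, 0.911 and 0.969 RPKM in epiblast and 1.83, 1.79, 1.16 and 1.39 in ExE (0.62, SE 0.10, limma adjusted p = 0.0028, and 0.52 with adjusted p = 0.061 under enrichment normalization). *Tbx6* had 0.624, 0.763, 1.1 and 1.04 RPKM in epiblast and 1.36, 1.32, 1.79 and 1.35 in ExE (0.51, SE 0.16, limma adjusted p = 0.038), without overlap. The *Tbx6* call was lost in 11 of 20 alternatives (adjusted p up to 0.34), 8 of them with a single wild-type library left out, and its H3K36me3 peaks of 50 and 55.5 kb carry the name of the neighbour *Mapk3*. *Sox17* was not called (0.36, adjusted p = 0.074, and 0.028 with genes under 0.5 RPKM left out), although its ExE libraries (0.451 to 0.789 RPKM) lay above its epiblast libraries (0.334 to 0.439), as at 25.5% of genes. The differences at *Evx1* (0.26, adjusted p = 0.13), *Gsc* (0.08, 0.71), *Mixl1* (−0.06, 0.79), *T* (−0.10, 0.59), *Mesp1* (−0.11, 0.73) and *Snai1* (−0.12, 0.72) were not called either. Visceral endoderm markers, which include *Gata4* and *Hnf4a*, moved in the same direction as H3K36me3 at *Gata6* and *Sox17*, with a summed level of 6.23 to 8.62 RPKM in epiblast and 14.5 to 20.7 in ExE. Their part in these results was not tested.

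**Figure D3:**
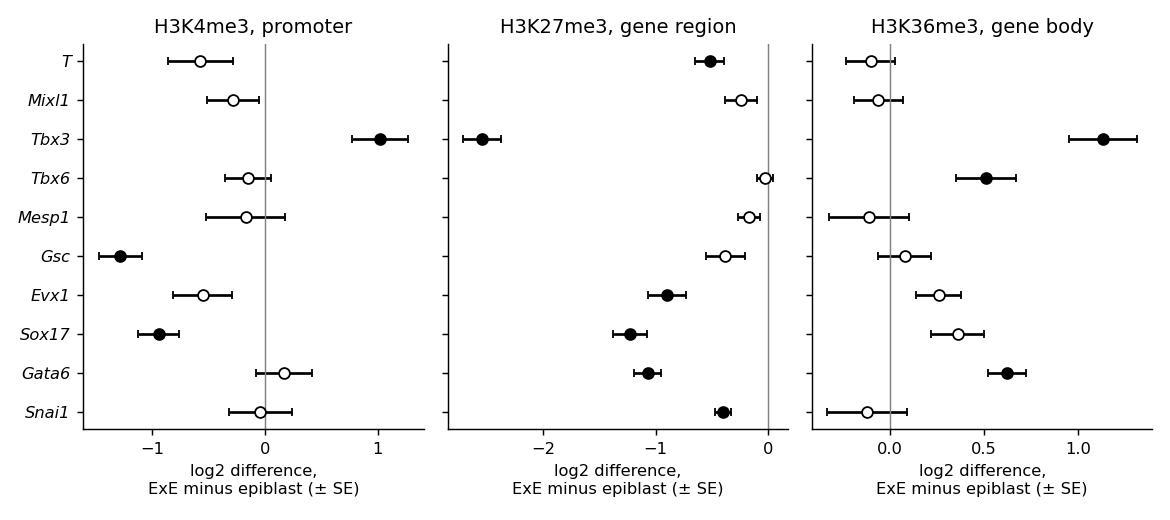
Difference of ExE minus epiblast on the log2(RPKM + 0.5) scale for each member and mark, over the wild-type crosses; bars are the SE from limma, filled circles are called at an adjusted p under 0.05 and open circles are not. H3K27me3 is lower in ExE at 6 members and most so at *Tbx3* (−2.54), H3K4me3 is higher at *Tbx3* and lower at *Gsc* and *Sox17*, and H3K36me3 is higher at *Tbx3*, *Gata6* and *Tbx6*.

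The windows showed where in each gene the marks lay. In epiblast, H3K27me3 at *T*, *Tbx3*, *Gata6* and *Gsc* dipped at the 5′ end and rose within 5 kb of it. At *T* the mean of the 4 wild-type libraries was 2.23 RPKM in the window over the 5′ end and 7.62 RPKM in the highest window, 2.1 kb downstream. At *Tbx3* it was 1.65 and 11.8 RPKM (2.8 kb downstream), and at *Gata6* 1.18 and 10.4 RPKM (at −4.6 kb, upstream). *Gsc* had 3.1 and 8.41 RPKM (1.8 kb downstream). *Evx1* had 2.89 RPKM at the 5′ end and its highest value, 9.45 RPKM, 10.0 kb downstream, past the gene. *Sox17* dipped little, with 8.82 RPKM at the 5′ end and 11.3 RPKM at most, as did *Mesp1* (3.84 and 5.13 RPKM) and *Mixl1* (2.4 and 2.6 RPKM).

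In ExE the dip was shallower at *T*, with 2.68 RPKM at the 5′ end and 3.21 RPKM at most, and the ExE mean exceeded the epiblast mean in 8 of 19 windows. At the 5′ end itself the ExE means were level with or slightly above those of epiblast also at *Gsc* (3.72 RPKM), *Evx1* (3.29 against 2.89) and *Gata6* (1.52), with overlapping libraries at each. At *Tbx3* the ExE mean was lower in all 25 windows, and 0.253 RPKM at the 5′ end. H3K4me3 at *Tbx3* peaked at 19.1 RPKM over the 5′ end in epiblast and at 48.9 RPKM (31.5 to 70.7), 1.8 kb downstream, in ExE. The *Sox17* H3K4me3 was highest 4.9 kb into the gene in both tissues (28.9 and 32.2 RPKM), while at the 5′ end it was 15.5 and 8.13 RPKM. At *Tbx6* the highest H3K4me3 window lay at −4.0 kb, upstream, in both tissues (24.5 and 19.7 RPKM).

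**Figure D4:**
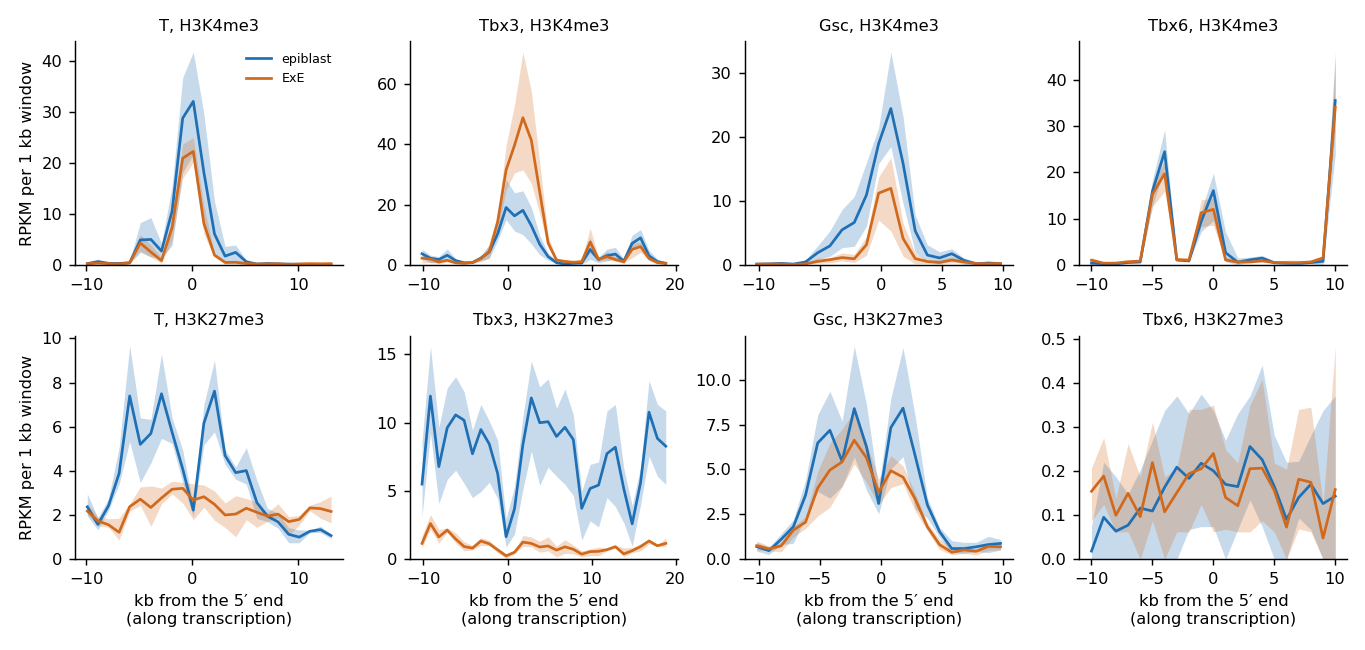
RPKM in 1 kb windows against distance from the 5′ end in kb along transcription, for *T*, *Tbx3*, *Gsc* and *Tbx6*, with H3K4me3 above and H3K27me3 below; lines are the mean of 4 wild-type libraries, bands the lowest to the highest, blue epiblast and orange ExE. The epiblast H3K27me3 of *T*, *Tbx3* and *Gsc* dips at the 5′ end and rises to 7.62, 11.8 and 8.41 RPKM beside it, and *Tbx6* stays at or below 0.255 RPKM.

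The matDKO/CAST embryos ask whether the marks depend on DNA methylation inherited from the oocyte. They were set against B6/CAST, which has the same direction of cross. Of the 10 members, 0 were called by limma in epiblast, in ExE or in the difference between the tissue contrasts, for any mark. Few genes were called at all: 0.00481%, 0.00481% and 0.0% for H3K4me3, 0.0577%, 0.0% and 0.0144% for H3K27me3 and 0.0481% (0.00961% higher), 0.0336% and 0.00481% for H3K36me3, in that order. At an unadjusted p under 0.05 the members numbered 0, 2 and 0, then 2, 0 and 1, then 1, 5 and 1, and all genes 290, 474 and 234, then 1616, 1046 and 1050, then 1836, 3626 and 2853.

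The largest of these differences was at *T*. Its ExE H3K4me3 measured 12 and 12.5 RPKM (B6/CAST), 10.3 and 13.8 RPKM (CAST/B6) and 3.67 and 6.48 RPKM (matDKO/CAST). Both matDKO/CAST libraries lay below all wild-type libraries, by −1.24 against B6/CAST (SE 0.42, limma adjusted p = 1.0). It was called by edgeR on the recovered reads (−1.28, adjusted p = 4.6e-06) and by limma with genes under 0.5 RPKM left out (adjusted p = 0.00094), so the call depends on the method. How many of all genes these fits called was not counted. *Gsc* was called by edgeR alone (−0.65, adjusted p = 0.049), where B6/CAST ExE measured 8.31 and 8.17 RPKM, matDKO/CAST 5.38 and 4.87 RPKM and CAST/B6 3.11 and 5.57 RPKM.

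The B6/CAST libraries had 0.932 and 0.797 RPKM of H3K36me3 over *T* in ExE, and those of matDKO/CAST 0.264 and 0.561 RPKM (−0.60, SE 0.18, limma adjusted p = 0.17, edgeR −1.01, adjusted p = 0.036). That of *Tbx6* was 1.36 and 1.32 against 0.357 and 0.823 RPKM (−0.79, SE 0.23, limma adjusted p = 0.16, edgeR −1.11, adjusted p = 0.034). *Gata6* was also called by edgeR (−0.48, adjusted p = 0.042). Here too the share of all genes called by edgeR was not counted. H3K27me3 over *T* in ExE was 3.76 and 2.6 RPKM in matDKO/CAST, where B6/CAST had 2.44 and 2.1 and CAST/B6 2.62 and 2.32 RPKM (0.40 against B6/CAST, SE 0.18, limma adjusted p = 0.8).

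Within matDKO/CAST, the tissues were separate at some members and overlapped at others. H3K27me3 was lower in both ExE libraries at *Tbx3* (4.84 and 3.03 RPKM in epiblast, 0.823 and 1.04 in ExE, log2 difference −1.61), *Sox17* (3.76 and 2.28 against 1.63 and 1.41, −0.77), *Gata6* (2.09 and 1.47 against 0.877 and 0.875, −0.71) and *Snai1* (0.892 and 0.689 against 0.447 and 0.394, −0.48). The difference was larger in both wild-type crosses at *Tbx3* (−2.12 and −2.95), *Sox17* (−1.13 and −1.33) and *Gata6* (−0.99 and −1.15). At *Snai1* they had −0.50 and −0.29. *Evx1* overlapped (4.71 and 3.59 against 3.76 and 2.64 RPKM, −0.34, where the wild-type crosses had −0.77 and −1.04). At *T* the difference was 0.03, where the wild-type crosses had −0.50 and −0.55, and at *Gsc* 0.09 against −0.24 and −0.53. The H3K36me3 difference at *Tbx6*, called in wild type, was 0.02. Against B6/CAST the H3K27me3 difference changed by 0.52 at *Tbx3* and 0.53 at *T*. The test of such a change did not pass for any member.

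Allelic reads were then compared as paternal over maternal, so a parent-of-origin bias keeps its sign in both wild-type crosses and a strain bias turns. The H3K4me3 libraries held 1.12 to 6.06 M such reads for epiblast and 2.7 to 6.82 M for ExE. Those of H3K27me3 held 0.271 to 1.99 M (epiblast) and 2.11 to 6.58 M (ExE). Of the 32 informative peaks named for a member, 1 was called in 1 cross. That was the ExE H3K4me3 peak of *T* (chr17:8428501-8439500), and the background was 5.95% of 23211 informative peaks in CAST/B6. By edgeR, 0 were called among the 8 H3K4me3 peaks of epiblast, the 4 and 3 H3K27me3 peaks of epiblast and ExE or the 4 and 2 H3K36me3 peaks in any cross or in the difference of matDKO/CAST and B6/CAST. Calls over all informative peaks, in B6/CAST, CAST/B6, matDKO/CAST and that difference, were 1.67%, 1.56%, 7.17% and 0.674% for H3K4me3 in epiblast and 13.6%, 5.95%, 2.76% and 0.892% in ExE. They were 1.56%, 12.9%, 1.97% and 0.179% for H3K27me3 in epiblast and 11.0%, 21.8%, 2.1% and 0.742% in ExE, and 0.614%, 3.14%, 0.451% and 0.163% for H3K36me3 in epiblast and 5.69%, 2.23%, 0.677% and 0.363% in ExE.

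The *T* locus had the clearest allelic pattern, in H3K27me3. The ExE peak over *T* (chr17:8337501-8692500, 355.0 kb, carrying the name of its neighbour *Sft2d1*) had 1305 maternal and 4659 paternal reads in B6/CAST replicate 1 and 1050 and 3586 in replicate 2. CAST/B6 had 1695 and 6663, then 1140 and 3596, and matDKO/CAST 2601 and 2736, then 1671 and 1745. The paternal share was 78.1 and 77.4% in B6/CAST, 79.7 and 75.9% in CAST/B6, and 51.3 and 51.1% in matDKO/CAST. The wild-type libraries were all far above the matDKO/CAST ones, in both directions of the cross. Reads are counted over the whole domain and not over *T* alone. According to the paper, most imprinted H3K27me3 of ExE lay in the *Igf2r/Airn* and *Kcnq1/Kcnq1ot1* clusters and depended on maternal germline methylation. Whether the domain over *T* belongs to the first of these was not tested.

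The bias was 1.88 on the log2 scale in B6/CAST (edgeR adjusted p = 3.7e-34) and 1.81 in CAST/B6 (edgeR adjusted p = 6.9e-46), where 11.0% and 21.8% of 18592 informative H3K27me3 peaks of ExE were called. In matDKO/CAST it was 0.35 (edgeR adjusted p = 0.2). The drop against B6/CAST, −1.54, was itself called (edgeR adjusted p = 2.6e-15), as at 0.742% of peaks. With the library as a block, which pairs the maternal and paternal reads of a sample, the remaining 0.35 in matDKO/CAST was called (adjusted p = 9e-12). It was also called in 3 of the fits with 1 library left out, at 0.43 (adjusted p = 0.0018) without matDKO/CAST replicate 3. These values are relative to the other peaks, since maternal and paternal columns were scaled separately, and the reads themselves lay near equal shares. The paternal excess was thus smaller in matDKO/CAST, and whether any is left depends on the scaling and the fit.

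The epiblast H3K27me3 peak over *T* (chr17:8411001-8574000, 163.0 kb, carrying the name *T2*) had the same direction at a smaller size. Its paternal share was 61.4 and 58.5% in B6/CAST, 58.5 and 58.1% in CAST/B6, and 46.9 and 49.0% in matDKO/CAST. All 4 wild-type shares were above both matDKO/CAST shares. The bias was 0.68 in B6/CAST (edgeR adjusted p = 0.13, 2.5e-10 with the library as a block, and 0.0013 to 0.047 in 4 of the fits with 1 library left out) and 0.48 in CAST/B6 (edgeR adjusted p = 1.7e-05), where 1.56% and 12.9% of 8924 peaks were called. The difference of matDKO/CAST and B6/CAST was −0.50 (edgeR adjusted p = 1.0), and −0.53 with the block (adjusted p = 0.025). The CAST/B6 call was lost without CAST/B6 replicate 1 or 2 (0.44 and 0.49, adjusted p = 0.79 and 0.68) and without matDKO/CAST replicate 1 (0.47, 0.058), in fits where the crosses shared the spread.

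H3K4me3 at *T* in ExE leaned to the maternal side in the wild-type crosses. The paternal share was 42.0 and 48.6% in B6/CAST, 37.2 and 40.8% in CAST/B6, and 57.3 and 54.8% in matDKO/CAST. The matDKO/CAST shares were the highest, on 47 and 68 paternal reads. The bias was −0.69 in CAST/B6 (edgeR adjusted p = 0.00055) and −0.22 in B6/CAST (edgeR adjusted p = 0.36), and the difference of matDKO/CAST and B6/CAST, 0.66, was not called (edgeR adjusted p = 1.0). The CAST/B6 call was lost without CAST/B6 replicate 1 or 2 (−0.60 and −0.82, adjusted p = 0.71 and 0.52) and without B6/CAST replicate 1 or 2 (−0.66 and −0.73, 0.16 and 0.11), in fits where the crosses shared the spread. In epiblast the shares were 49.4, 48.0, 53.7 and 55.3% in the wild-type libraries, with no call.

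**Figure D5:**
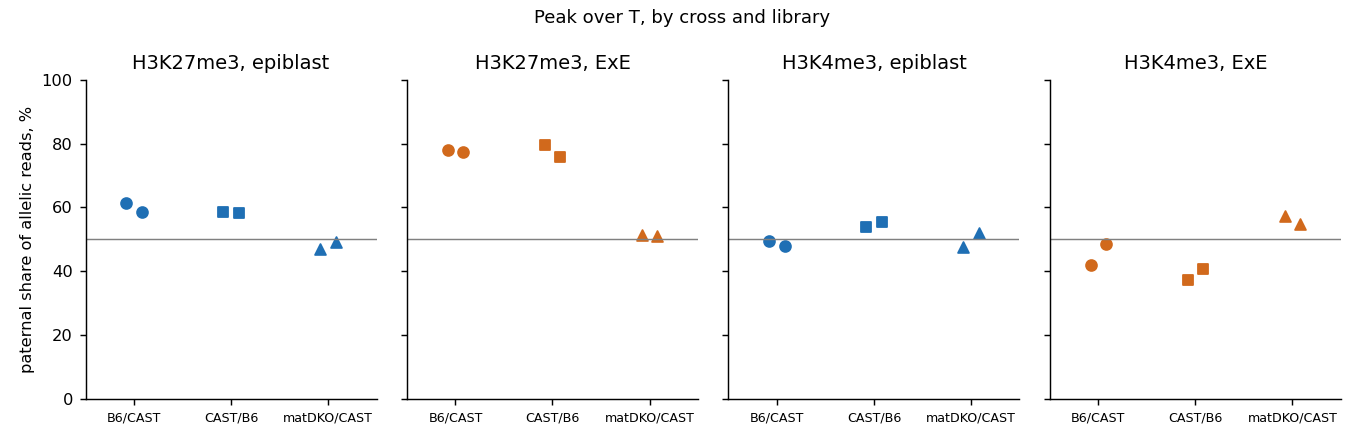
Paternal share in percent of the strain-specific reads in the peak over *T*, for each library by cross, in H3K27me3 (left pair of panels) and H3K4me3 (right pair), epiblast blue and ExE orange; the grey line marks equal shares. In ExE H3K27me3 the 4 wild-type libraries sit between 75.9 and 79.7% and the matDKO/CAST libraries at 51.3 and 51.1%.

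The other members had no parent-of-origin call in both wild-type crosses. The ExE H3K27me3 domain over *Gsc* (chr12:104399501-104515000, 115.5 kb, carrying the name *Serpina3n*) followed the strain. Its paternal share was 44.1 and 45.4% in B6/CAST, 56.9 and 58.6% in CAST/B6, and 39.9 and 47.2% in matDKO/CAST, so the B6 allele (B6/129 in matDKO/CAST) had more reads in all 6 libraries. The bias was 0.43 in CAST/B6 (edgeR adjusted p = 1.3e-05) and −0.23 in B6/CAST (edgeR adjusted p = 0.063, and 0.0054 with the library as a block).

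The epiblast H3K27me3 peak over *Mesp1* (chr7:79785501-79797000, carrying the name *Wdr93*) was called in CAST/B6 at 0.54 (edgeR adjusted p = 0.039), on paternal shares of 66.9 and 47.6%. The replicates lay on either side of equal shares, without CAST/B6 replicate 1 the bias was −0.17, and the call was lost by DESeq2 and without any 1 of the 6 libraries. With the library as a block, calls were added for *Mixl1* H3K27me3 in CAST/B6 ExE (−0.63, adjusted p = 0.049), *Evx1* H3K27me3 in B6/CAST ExE (−0.10, 0.026), *Gata6* H3K4me3 in B6/CAST ExE (0.17, 0.04), and in matDKO/CAST H3K4me3 for *Tbx3* in epiblast (0.27, 0.028) and ExE (0.25, 0.035) and *Sox17* in epiblast (0.37, 0.026). Each was called in a single cross for that tissue.

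The wider pathway was read from lists of 14 gastrulation signals, 20 further mesoderm transcription factors and 15 endoderm and node transcription factors, in the same wild-type tissue contrast. H3K27me3 was lower in ExE at 14 of 20 mesoderm factors (1 higher, median −0.55) and at 9 of 15 endoderm and node factors (1 higher, median −0.76), against 9.87% of all genes. Among the signals 4 were lower and 5 higher (median −0.01), where 17.2% of all genes were higher. H3K4me3 was lower at 8 of 14 signals (1 higher, median −1.07), 5 of 20 mesoderm factors (1 higher, −0.36) and 5 of 15 endoderm and node factors (2 higher, −0.35), against 8.65% of all genes lower and 2.55% higher. H3K36me3 was lower at 5 signals and higher at 1 (−0.25), higher at 2 mesoderm factors (0.04), and higher at 6 and lower at 1 of the endoderm and node factors (0.07), against 31.0% of all genes higher and 6.22% lower. *Gata4*, *Hnf4a* and *Foxa2* of that last list are also visceral endoderm markers, of which 9 of 12 rose in H3K36me3.

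The genes with the largest H3K27me3 losses in ExE were *Dkk1*, a Wnt antagonist (2.28 RPKM ± 0.503 in epiblast and 0.438 ± 0.0825 in ExE, SD, n = 4), *Hand1*, a bHLH factor of trophoblast and mesoderm (7.37 ± 1.04 and 2.4 ± 0.112), and *Gata4*, of endoderm and heart (3.67 ± 0.793 and 1.17 ± 0.143). Their differences were −1.55, −1.43 and −1.30 (limma adjusted p = 0.00048, 0.00095 and 0.00047). The largest gains were at *Fgf8*, a streak signal (1.86 ± 0.408 and 3.23 ± 0.394), *Meox1*, of somites (1.01 ± 0.316 and 1.78 ± 0.247), and *Tdgf1*, the Nodal co-receptor Cripto (0.241 ± 0.0562 and 0.541 ± 0.0602). These were 0.67, 0.62 and 0.49 (limma adjusted p = 0.0041, 0.018 and 0.0016).

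In H3K4me3, *Tdgf1* (15.6 RPKM ± 1.94 in epiblast and 4.2 ± 1.9 in ExE), *Fgf8* (15.1 ± 3.42 and 5.04 ± 1.91) and *Wnt3a*, another streak signal (8.66 ± 2.37 and 2.66 ± 0.658), fell most, by 1.88, 1.54 and 1.51 on the log2 scale (limma adjusted p = 0.0028, 0.0015 and 0.0045). *Bmp4*, which ExE secretes (6.14 ± 2.09 and 17.1 ± 3.42), *Hnf4a*, of visceral endoderm (0.649 ± 0.309 and 2.19 ± 1.02), and *Hand1* (8.76 ± 3.21 and 18.8 ± 4.2) rose most, by 1.43, 1.18 and 1.11 (limma adjusted p = 0.0013, 0.039 and 0.037). In H3K36me3 *Lefty2*, *Tdgf1* and *Nodal* fell most (−0.55, −0.53 and −0.49, limma adjusted p = 0.0047, 0.0085 and 0.0091). *Hand1* and *Bmp4* rose (0.82 and 0.78, limma adjusted p = 0.024 and 0.0017). *Hand1*, *Bmp4* and *Gata4*, which is also among the visceral endoderm markers, had the 3 changes that *Tbx3* had: less H3K27me3 and more H3K4me3 and H3K36me3 in ExE.

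As a description, the genes whose levels followed the members' median most closely over the 24 H3K4me3 and H3K27me3 libraries were *Hand2* (Pearson r = 0.887), *Gm1673* (0.878), *Trim7* (0.874), *Kctd1* (0.874) and *Pqlc1* (0.87). The members themselves ran from 0.457 for *Tbx6* and 0.595 for *Tbx3* to 0.873 for *Evx1*, and the median of all genes was 0.182. Each member is part of the median it is set against, which can raise its own r, so the members and all genes are not on equal terms. The libraries share depth and tissue, which also enter this measure.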

How the data were processed

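The authors made all files from reads trimmed with Trim Galore 0.4.4 and aligned with Bowtie2 2.3.2 to GRCm38, with versions from the submitters' processing notes. The deposited window table holds RPKM per 1 kb window. The deposited allelic tables hold whole-number read counts per peak and parental allele, split by SNPs between the strains. Peaks were called with chromstaR for each wild-type cross and tissue, and the score column of the lists holds the single value 0.

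RPKM steps gave whole reads for 100% of values (tolerance 0.1 read). Regions were set from GENCODE on GRCm38. Total signal was tested with limma 3.58.1 (R 4.3.3) on log2(RPKM + 0.5) over 20807 genes and all 12 libraries of a mark, with no filter on low values. Alleles were tested with edgeR 4.0.16 quasi-likelihood fits for each cross over all informative peaks, with the maternal and paternal columns scaled separately by TMM, and matDKO/CAST minus B6/CAST as an interaction. Adjustment was Benjamini-Hochberg, two-sided, called under 0.05. Scripts were tested on simulated data. Alternatives changed the pseudocount, filter, region, input correction, enrichment normalization (40th and 99th percentiles), tool (edgeR or DESeq2 1.42.0 on recovered reads), block, and each library left out. Where a cross was left with 1 library, the crosses shared the spread and the lone library was assumed to vary like the others.

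Libraries that share a replicate number across tissues deviated together in 12 of 15 pairs (r above 0.1). With 2 libraries a group both pairs of a cross must give 1 value, so the 15 are not separate checks. For H3K4me3 all 4 pairs did (r from 0.399 to 0.584, with both pairs of B6/CAST giving 1 value), and blocked values stand beside the results they change. In CAST/B6 and matDKO/CAST H3K4me3 only replicate 2 is present in both tissues. The other libraries of those crosses do not inform the blocked values, such as those at *T*, *Evx1* and *Sox17*. For the other marks not all did, so numbers were not taken as pairing there, and their blocked values are shown as alternatives alone. For H3K27me3 the block called 9160 of 20807 genes between tissues, against 5640 without it. For alleles, pairing is given by construction, since both parental columns belong to 1 library. No source says that replicates are separate litters, so p-values measure the spread between these samples. The members are named by their selection, and from the pathway lists the 3 largest called changes in each direction, of which 1 in H3K36me3 is not reported here. The members and lists were chosen with earlier results of these data known. Shares of reads carry counting error alone, and duplicate molecules are not told apart.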

Additional observations from a re-analysis of the deposited data

Results flagged for a closer look

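The paternal excess of H3K27me3 in the 355.0 kb ExE domain over *T* differed between matDKO/CAST and B6/CAST. The test of that difference gave −1.54 on the log2 scale of paternal over maternal reads (edgeR adjusted p = 2.6e-15), with a bias of 1.88 for B6/CAST embryos and 0.35 for matDKO/CAST embryos. Under the alternatives the difference ran from −1.64 to −1.47 and stayed called in 9 of 9. The 4 wild-type libraries had paternal shares of 75.9 to 79.7%, with 95% Wilson intervals between 74.7 and 80.6%, and the matDKO/CAST libraries 51.3 and 51.1%, with intervals between 49.4 and 52.8%. The mothers of matDKO/CAST also differ from B6/CAST mothers in their B6/129 background, so the deletion and that background cannot be told apart.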

How the results depend on the processing

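Of 498 counts over 38 results and their alternatives, 470 stayed within 1.5 times. The number of members called for H3K4me3 between wild-type tissues, 3, was 5 with genes under 0.5 RPKM left out, 1 with enrichment normalization and 6 by edgeR. All genes called moved too, from 2329 of 20807 to 2915 of 14323, 1543 of 20807 and 4701 of 20623, in that order. For matDKO/CAST against B6/CAST in ExE, 0 became 1 with that filter and 2 by edgeR for H3K4me3, and 3 by edgeR for H3K36me3. The share of all genes called in those matDKO/CAST fits was not counted, so these member counts have no background. For H3K27me3 between tissues, 6 became 3 within 1 kb of the 5′ end, where *Evx1* turned to 0.01 and all genes called fell from 5640 to 3132. For H3K36me3 between tissues, 3 became 1 with enrichment normalization, and all genes called fell from 7744 to 2710. The cause was not tested. With the cross and replicate number as a block, the H3K36me3 count became 5, with *Evx1* (0.26, adjusted p = 0.041) and *Sox17* (0.36, 0.046) added. All genes called were then 8111. With the library as a block, allelic calls for peaks named for a member rose from 0 to 1 (H3K4me3, epiblast), 1 to 2 (H3K4me3, ExE) and 0 to 1 (H3K27me3, ExE). For peaks over a member under another name they rose from 0 to 1 (H3K4me3, epiblast and ExE alike), from 0 to 1 (H3K27me3 difference, epiblast) and from 3 to 6 (H3K27me3, ExE). The last was 5 with library totals, and for epiblast H3K27me3 2 became 1 by DESeq2. The share of all peaks called under these allelic settings was not counted. The *Mesp1* bias turned to −0.17 without CAST/B6 replicate 1.

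With each library left out in turn, tissue counts ran from 2 to 3 for H3K4me3, from 5 to 6 for H3K27me3 and from 2 to 4 for H3K36me3. Those of matDKO/CAST ran from 0 to 1 for H3K27me3 in ExE and in the difference of the tissue contrasts (*Tbx6*, without matDKO/CAST ExE replicate 2), and were 0 elsewhere. Allelic counts ran from 0 to 1 (named H3K4me3, ExE), 0 to 2 (H3K27me3 under another name, epiblast) and 3 to 4 (the same, ExE), were 1 for the *T* difference, and were 0 elsewhere.

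Calls named for members kept their side in 227 total-signal and 61 allelic settings and lost it in 30 and 13, and differences that were not called became called in 31 and 19. A difference that was not called turned its sign in 268 settings over 136 of 309 results. Both marks were counted at 9 members in epiblast when a peak in 1 cross was enough, and at 6 (epiblast) and 7 (ExE) among peaks longer than the median. The shares of all genes were 25.8%, 8.8% and 11.3%, in that order. With 2 libraries a group, changes of small size could not be detected, and the SE of matDKO/CAST against B6/CAST reached 0.49 (*Mesp1* H3K4me3), and 0.69 for the difference of the tissue contrasts.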
